A study of Mus musculus with 20 samples.

Results

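The endoplasmic reticulum (ER) chaperones and stress sensors described here are 10 genes: Hspa5, Hsp90b1, Calr, Canx, Pdia3, Pdia4, Ern1, Xbp1, Atf4 and Selenos. They were taken by gene symbol, as every probe set of the Affymetrix MOE430A array annotated to one of these symbols. This gave 26 of the array's 22690 probe sets and 10 of its 12393 genes with 1 symbol. Expression was measured in mouse oocytes, 1-cell embryos, 2-cell embryos, 8-cell embryos and blastocysts, with 4 arrays for each of the 5 stages. Per the labels, every sample was total RNA that had passed through 2 rounds of amplification by in vitro transcription. The labels name no strain, treatment, maternal age, collection time or number of oocytes or embryos for any stage. They also do not say that the 4 samples of a stage were collected separately, so the p-values speak only of how far these samples lie apart, a spread that may be technical. In such bulk RNA samples fewer cells with a transcript and less of it per cell cannot be told apart.

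The ER is where secreted and membrane proteins are translocated, folded, glycosylated and given their disulfide bonds. Hspa5 encodes BiP and Hsp90b1 encodes GRP94, the HSP70 and HSP90 chaperones of its lumen, Calr and Canx encode the lectin chaperones calreticulin and calnexin, and Pdia3 and Pdia4 encode disulfide isomerases. When unfolded proteins accumulate, the sensor kinase and nuclease IRE1α (Ern1) removes a short intron from Xbp1 mRNA, the PERK branch raises translation of the transcription factor ATF4, and misfolded proteins are passed to the cytosol for degradation, a step in which the membrane protein selenoprotein S (Selenos) takes part. The array measured transcript abundance only, and neither Xbp1 splicing nor the translation or activity of any of these proteins was measured.

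The promoters of the 4 chaperone genes are shown because they carry the ER stress element (ERSE), the site through which ATF6 and XBP1 are known to act on such genes. Each sequence is the 250 bases upstream of the RefSeq start site on mouse build GRCm38.p6, written 5′ to 3′ along the gene, with the ERSE letters in capitals and, in Hspa5, also the core of the unfolded protein response element (UPRE). The ERSE was searched as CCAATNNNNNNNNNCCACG and the UPRE core as TGACGTG, both on both strands, and the 2 motifs did not overlap in any of these windows.
Hspa5 (chr2:34771840-34772089, plus strand): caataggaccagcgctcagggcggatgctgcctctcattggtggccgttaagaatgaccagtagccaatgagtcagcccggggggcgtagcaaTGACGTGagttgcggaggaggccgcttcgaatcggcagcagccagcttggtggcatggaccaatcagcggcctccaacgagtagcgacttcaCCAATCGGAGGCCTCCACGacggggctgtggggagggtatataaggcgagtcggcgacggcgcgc
Hsp90b1 (chr10:86705445-86705694, minus strand): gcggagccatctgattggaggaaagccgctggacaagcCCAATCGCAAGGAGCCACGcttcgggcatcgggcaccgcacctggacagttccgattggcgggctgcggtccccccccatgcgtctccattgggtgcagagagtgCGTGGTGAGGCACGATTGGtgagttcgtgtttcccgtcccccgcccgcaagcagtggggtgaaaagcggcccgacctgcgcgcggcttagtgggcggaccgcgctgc
Calr (chr8:84846932-84847181, minus strand): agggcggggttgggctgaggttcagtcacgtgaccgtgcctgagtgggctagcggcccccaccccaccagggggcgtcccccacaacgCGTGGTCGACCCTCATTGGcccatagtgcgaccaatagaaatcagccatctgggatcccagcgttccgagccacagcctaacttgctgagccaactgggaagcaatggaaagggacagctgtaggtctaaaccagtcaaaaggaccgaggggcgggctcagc
Canx (chr11:50325674-50325923, minus strand): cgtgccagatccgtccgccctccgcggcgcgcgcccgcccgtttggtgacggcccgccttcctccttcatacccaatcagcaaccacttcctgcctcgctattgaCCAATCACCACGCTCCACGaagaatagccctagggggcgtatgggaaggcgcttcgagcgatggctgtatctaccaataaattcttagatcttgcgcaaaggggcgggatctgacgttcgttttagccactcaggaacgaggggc

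All 10 genes matched a RefSeq promoter window of 300 bases, from 250 before to 50 after the start site. The ERSE stood once in Hspa5 (positions -65 to -47 from the start site), in Calr (-162 to -144) and in Canx (-145 to -127), and at -212 to -194 and -107 to -89 in Hsp90b1. The same letters were found in 39 of 32851 RefSeq windows (0.119%), which belong to 37 of 27025 genes (0.137%). The UPRE core lay at -157 to -151 in Hspa5, and 2.01% of all windows held it. The windows of Pdia3, Pdia4, Ern1, Xbp1, Atf4 and Selenos held neither the ERSE nor the UPRE core. No window of the 10 genes held ERSE-II (ATTGGNCCACG, in 0.0365% of all windows) or the core of the amino acid response element (TTGCATCA, in 0.895%). A match of letters describes the sequence and is no evidence of a bound site, and no match says only that these letters are not in the window.

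The arrays had been scaled to a common trimmed mean of 150.1, and their median intensities ran from 36.5 to 58.1. The Pearson correlation of log2 intensities between arrays of 1 stage, across tested probe sets, lay between 0.931 and 0.971, and 0 of 190 pairs of arrays held identical values. All 9 oocyte markers on the array exceeded the low-intensity filter of 32.9 on all 4 oocyte arrays, and 2 of 9 did so in blastocysts. All 12 blastocyst markers did so in blastocysts, but 7 of 12 also did so in oocytes. All 6 markers of the 2-cell stage did so at that stage, and 4 of 6 also in oocytes. Summed intensities followed the labels, with each list highest at its own stage. Blastocyst markers summed to 14250 to 16560 in blastocysts and 1292 to 1412 in oocytes. Markers of the 2-cell stage summed to 2937 to 5607 at that stage and 355.2 to 444.5 in oocytes. The 3′ to 5′ ratio of the actin control averaged 4.74, 4.24, 4.63, 3.67 and 1.99 from oocyte to blastocyst, that of the Gapdh control 4.70, 4.76, 5.43, 1.28 and 5.81, and the 18S ribosomal RNA signal averaged 12670 in 1-cell embryos against 196 in oocytes. Of 6 oviduct and blood markers on the array, Ovgp1, which encodes oviductin, stood apart in replicate 2 of the 8-cell stage. It read 3105 there and 46.5 to 194 in the other 8-cell samples. The other markers were not raised in that array. Pax8 read 73.2 there (65.1 to 122.4 in the other 8-cell samples), Hba-a1 55.2 (39.2 to 70.5) and Cd68 64 (37.9 to 69). Lyz2 read 60 (105.1 to 159.8) and Ptprc 10 (15.6 to 34.3). The summed intensity of the 6 ranged from 312 to 3368 at the 8-cell stage, with the high end set by Ovgp1. It ranged from 505 to 1035 at the 2-cell stage. Ovgp1 alone read 765, 614, 381 and 220 on the 2-cell arrays. It read 18.9 to 112 on the oocyte and 1-cell arrays and 24.4 to 56.5 in blastocysts. On all 8-cell arrays 5 of 6 exceeded the filter. On all arrays of the other stages 4 did so in 2-cell embryos, 4 in blastocysts, 2 in 1-cell embryos and 1 in oocytes. Ptprc, which marks leukocytes, stayed below the filter on all arrays but 1 of the 20. The part of the Ovgp1 signal of the 2-cell and 8-cell stages in the results was not tested. Since every 2-cell array carried it, leaving out 1 array does not remove it from that stage. Calls of the 10 genes that 8-cell replicate 2 decided are given with and without it.

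Levels are deposited intensities on a linear scale. Differences are later minus earlier stage on a log2(intensity + 12.15) scale with their standard error (SE), from a limma model of all 20 arrays, and a gene was called higher or lower when its p-value, adjusted by the Benjamini-Hochberg method over all probe sets tested in that comparison, was under 0.05. The added constant makes changes of low signals look smaller than they are. Each gene is represented by its tested probe set with the highest mean, and levels are not compared between genes or probe sets. Of the 26 probe sets 23 passed the filter, an intensity above 32.9 on at least 4 arrays, and every gene kept at least 1. The 3 that did not were 1431886_at of Ern1 (2.1 to 31.3 over the 20 arrays), 1420012_at of Xbp1 (5.9 to 58.4) and 1439258_at of Atf4 (1.6 to 13.4).

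**Figure D1:**
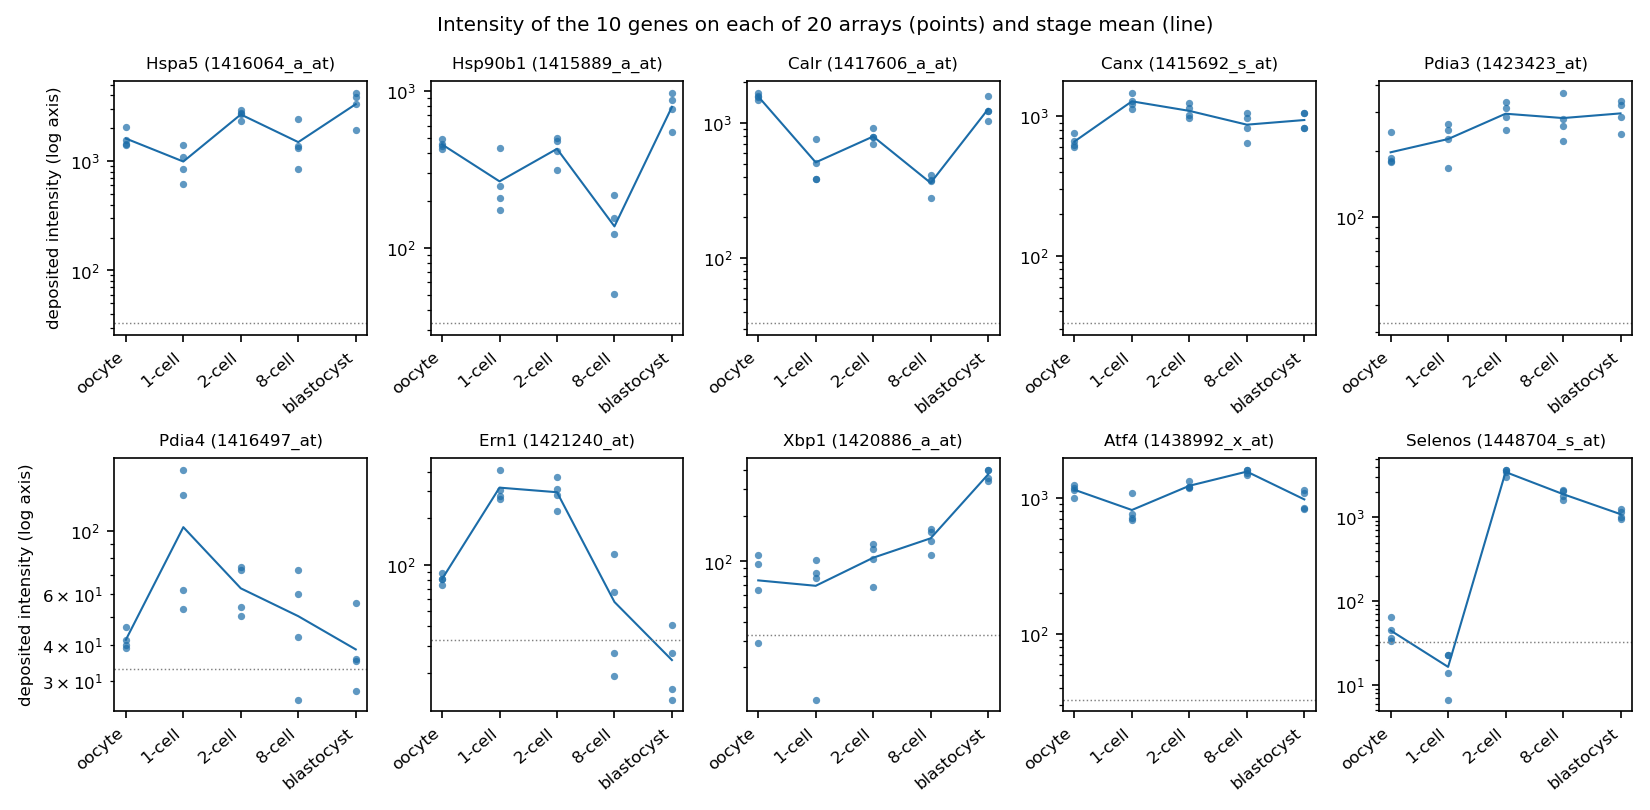
Deposited intensity (log axis) of the 10 genes at the 5 stages, 1 panel per gene with its representative probe set; each point is 1 of 4 arrays, the line joins the stage means and the dotted line marks the filter at 32.9. On the probe sets drawn, Hspa5, Hsp90b1 and Calr share a fall, rise, fall and rise, Ern1 is high at the 1-cell and 2-cell stages, Xbp1 is highest in blastocysts and Selenos goes from 6.7 to 22.8 on the 1-cell arrays to between 3034 and 3704 on the 2-cell arrays.

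On their representative probe sets the chaperones Hspa5, Hsp90b1 and Calr fell, rose, fell and rose again over the 4 steps from oocyte to blastocyst, but the second probe set of Hsp90b1 was called the opposite way at the first 2 steps. The sensors and factors each followed a course of their own. From oocyte to 1-cell embryo Canx, Pdia4 and Ern1 rose and Hspa5, Hsp90b1, Calr, Atf4 and Selenos fell, 3 higher and 5 lower of 10, where 15.2% and 16.6% of the 10257 genes tested were called higher and lower. From 1-cell to 2-cell, the step at which the mouse embryo activates its own genome, Hspa5, Hsp90b1, Calr, Atf4 and Selenos rose and none of the 10 fell (limma, Benjamini-Hochberg adjustment; 7 and 0 at an unadjusted p under 0.05), against 22% and 22.7% of all genes tested. From 2-cell to 8-cell Hspa5, Hsp90b1, Calr, Ern1 and Selenos fell and none rose (limma; 6 and 1 at an unadjusted p under 0.05), against 25.7% called lower and 22.2% higher. From 8-cell to blastocyst Hspa5, Hsp90b1, Calr and Xbp1 rose and Ern1, Atf4 and Selenos fell, 4 and 3 of 10, against 20% and 26.4%. Between the end points, oocyte and blastocyst, Hspa5, Hsp90b1, Canx, Pdia3, Xbp1 and Selenos were higher in blastocysts and Ern1 was lower, 6 and 1 of 10, against 26.2% and 33.6%.

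The median log2 difference of the 10 genes was -0.35 at the first step, where that of all genes tested was 0.09. It was 0.64 against -0.07 from 1-cell to 2-cell and -0.61 against 0.04 from 2-cell to 8-cell. From 8-cell to blastocyst the medians were 0.10 and -0.22, and from oocyte to blastocyst 0.53 and -0.20. Between stages that are not neighbours, 6 of the 10 differed between oocyte and 2-cell (45.3% of all genes tested), 7 between oocyte and 8-cell (60.3%), 8 between 1-cell and 8-cell (60.5%), 8 between 1-cell and blastocyst (66.2%) and 5 between 2-cell and blastocyst (57.5%). Comparisons of neighbouring steps share the samples of the stage between them. With the stages of each gene placed in the order of their means, 15 of the 40 neighbouring pairs differed at the threshold.

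**Figure D2:**
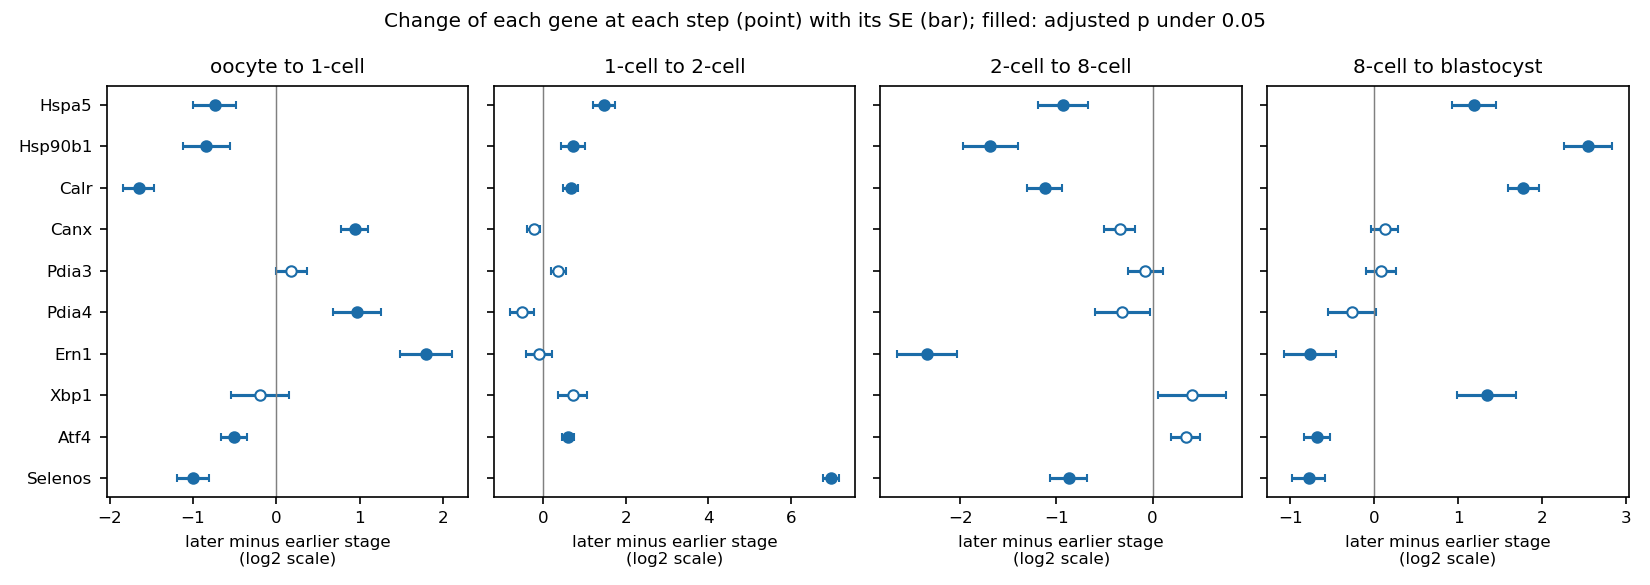
Log2 difference (later minus earlier stage, points) with its SE (bars) for the 10 genes at each of 4 steps, 4 arrays a stage; filled points have an adjusted p under 0.05. The horizontal axes differ between panels, and the rise of Selenos at the 1-cell to 2-cell step is the widest difference drawn.

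Hspa5, which encodes the BiP chaperone that also holds the stress sensors inactive, was measured by 2 probe sets that followed the same course. On 1416064_a_at the oocyte arrays read 2031, 1409, 1546 and 1439, and the 1-cell arrays 617, 851, 1081 and 1410. The 2-cell arrays read 2299, 2765, 2908 and 2682, the 8-cell arrays 842, 2419, 1322 and 1373 and the blastocyst arrays 3291, 3852, 4183 and 1915. Every 2-cell array was above every oocyte and 1-cell array, the 1-cell and oocyte arrays overlapped in 1 array each, and 8-cell replicate 2 reached into the 2-cell range. Hspa5 fell by 0.74 ± 0.26 from oocyte to 1-cell on the log2 scale (limma adjusted p = 0.0311), a mean intensity 1.62-fold lower. It rose by 1.48 ± 0.26 to the 2-cell stage (2.69-fold, adjusted p = 3.01e-05) and fell by 0.93 ± 0.26 to the 8-cell stage (adjusted p = 0.00416). The last rise, to the blastocyst, was 1.19 ± 0.26 (2.22-fold, adjusted p = 0.000635). The first fall was the least secure of these, since it missed the threshold without oocyte replicate 1 (adjusted p = 0.102) or 3 (0.0517), or without 1-cell replicate 1 (0.146) or 2 (0.0788), after median centring (0.0532) and without the filter (0.0517). The second probe set, 1427464_s_at, fell by 0.96 ± 0.28 at that step (adjusted p = 0.01) with no overlap between the 1-cell arrays (80.8 to 166) and the oocyte arrays (175 to 304).

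The 8-cell level of Hspa5 depended on replicate 2, the array with the highest Ovgp1 signal, which read 2419 for Hspa5 where the other 3 read 842 to 1373. Without that array Hspa5 fell by 1.20 from 2-cell to 8-cell on the log2 scale, not 0.93, and rose by 1.45 to the blastocyst, not 1.19. Both changes were larger without it. In the order of stage means blastocyst and 2-cell stood highest and were not told apart by the test (0.26 ± 0.26, adjusted p = 0.415), nor were oocyte and 8-cell (0.19 ± 0.26 in size, adjusted p = 0.542).

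Hsp90b1, the GRP94 chaperone whose clients include integrins and Toll-like receptors, had 2 probe sets that disagreed at the first steps. On 1415889_a_at the oocyte arrays read 429, 457, 494 and 449, and the 1-cell arrays 173, 207, 249.8 and 433. The 2-cell arrays read 505, 478, 316 and 415, the 8-cell arrays 50.7, 219, 155 and 123 and the blastocyst arrays 772, 881, 974 and 549. All 8-cell arrays lay below all 2-cell arrays and all blastocyst arrays above the arrays of every other stage. The fall to the 8-cell stage was 1.69 ± 0.29 on the log2 scale (3.13-fold, limma adjusted p = 1.52e-05) and the rise to the blastocyst 2.55 ± 0.29 (5.8-fold, adjusted p = 5.08e-08), and without 8-cell replicate 2 it fell by 1.95 and rose by 2.81. The earlier changes were smaller, a fall of 0.84 ± 0.29 to the 1-cell stage (adjusted p = 0.0253) and a rise of 0.73 ± 0.29 to the 2-cell stage (adjusted p = 0.0396).

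These 2 early changes of Hsp90b1 did not hold across alternatives. The fall missed the threshold under quantile normalization (adjusted p = 0.0758) and without oocyte replicate 3 (0.058), 1-cell replicate 1 (0.103) or 1-cell replicate 2 (0.0771). The rise to the 2-cell stage missed it without 1-cell replicate 1 (0.145), 2 (0.106) or 3 (0.0658), without 2-cell replicate 1 (0.1), 2 (0.0916) or 4 (0.0642), and under quantile normalization (0.0727) or median centring (0.138). The second probe set, 1438040_a_at, went the other way at both: its 1-cell arrays read 844, 463, 478 and 458 against 195 to 357 in oocytes and 137 to 256 at the 2-cell stage. It rose by 0.91 ± 0.29 and then fell by 1.37 ± 0.29 (adjusted p = 0.0179 and 0.000288), and its first rise missed the threshold without oocyte replicate 3 (0.74, adjusted p = 0.0785) or 1-cell replicate 1 (0.70, adjusted p = 0.0914) and turned to -0.10 when arrays were scaled to the hybridization controls. From 2-cell to 8-cell it differed by -0.55 ± 0.29 (adjusted p = 0.128), and was called lower without 8-cell replicate 2 (-0.86, adjusted p = 0.0118), with a replicate block (adjusted p = 0.043) and on the hybridization-control scale (-1.05, adjusted p = 0.00561). Both probe sets rose from 8-cell to blastocyst, 1438040_a_at by 1.40 ± 0.29 (adjusted p = 0.000357), or by 1.71 without 8-cell replicate 2. From oocyte to blastocyst 1415889_a_at rose by 0.75 ± 0.29 (adjusted p = 0.0256), which missed the threshold without oocyte replicate 1 (0.054), blastocyst replicate 2 (0.0629) or blastocyst replicate 3 (0.0806), and 1438040_a_at differed by 0.38 ± 0.29 (adjusted p = 0.268).

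Calr, a calcium-binding lectin chaperone of soluble glycoproteins, had 3 probe sets with 1 shared course. On 1417606_a_at the oocyte arrays read 1667, 1469, 1581 and 1569, and the 1-cell arrays 386, 388, 506 and 765. At the 2-cell stage the values were 912, 782, 703 and 782, at the 8-cell stage 280.2, 377, 411 and 373 and in blastocysts 1587, 1035, 1222 and 1224. Oocytes and blastocysts were high, with no overlap with any other stage, and the 8-cell arrays overlapped only with the lowest 1-cell arrays. Calr fell by 1.65 ± 0.18 on the log2 scale from oocyte to 1-cell (3.07-fold, limma adjusted p = 6.26e-08), the largest first-step fall among the 10 representative probe sets. It rose by 0.68 ± 0.18 to the 2-cell stage (adjusted p = 0.00361), fell by 1.12 ± 0.18 to the 8-cell stage (adjusted p = 1.07e-05) and rose by 1.78 ± 0.18 to the blastocyst (3.52-fold, adjusted p = 1.47e-08). The 2-cell rise was not called after centring on the array median (0.54, adjusted p = 0.0587).

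The other probe sets of Calr gave the same direction at each of these steps. 1433806_x_at fell by 1.27 ± 0.21 at the first step and rose by 1.46 ± 0.21 at the last, and 1456170_x_at did so by 1.47 ± 0.20 and 1.52 ± 0.20. At the 1-cell to 2-cell step 1456170_x_at was just called (0.48 ± 0.20, limma adjusted p = 0.0489, lost in 15 of 20 fits without 1 array) and 1433806_x_at was not (0.44 ± 0.21, adjusted p = 0.09). The difference between oocytes and blastocysts was not called on any of the 3, with -0.32 ± 0.18 on 1417606_a_at (adjusted p = 0.138, but -0.46 and 0.0332 under quantile normalization).

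Canx, the membrane-anchored partner of calreticulin, did not share this course, and its promoter window is one of the 4 shown with the ERSE. On 1415692_s_at the oocyte arrays read 601, 621, 755 and 668, and the 1-cell arrays 1472, 1137, 1225 and 1299. The values were 1146, 1242, 1029 and 968 in 2-cell embryos, 641, 822, 978 and 1051 in 8-cell embryos and 1059, 825, 1065 and 821 in blastocysts. Oocytes were low and the 1-cell arrays were all above them, while the 2-cell, 8-cell and blastocyst arrays overlapped with one another. The rise at the first step was 0.94 ± 0.16 on the log2 scale (1.94-fold, limma adjusted p = 4.23e-05), but -0.08 when arrays were scaled to the hybridization controls. No later step was called on this probe set, with differences of -0.23 ± 0.16, -0.34 ± 0.16 and 0.12 ± 0.16. The 2-cell to 8-cell difference was called under quantile normalization (-0.40, adjusted p = 0.0267), without 8-cell replicate 4 (-0.44, adjusted p = 0.0335) and on the hybridization-control scale (-0.89, adjusted p = 0.00799), where the last step was called too (1.21, adjusted p = 0.000278). From oocyte to blastocyst 1415692_s_at rose by 0.50 ± 0.16 (adjusted p = 0.00954), and by 0.23 (adjusted p = 0.504) on the hybridization-control scale. Neither other probe set was called as deposited, with 0.38 ± 0.19 on 1422845_at (limma adjusted p = 0.0828) and -0.39 ± 0.22 on 1428935_at (0.135). Without blastocyst replicate 2, 1422845_at was called (0.49, adjusted p = 0.035). At the first step 1422845_at rose by 0.75 ± 0.19 (adjusted p = 0.00239), and 1428935_at was not called (0.29 ± 0.22, adjusted p = 0.364).

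The 2 other probe sets of Canx parted at the 2-cell stage. 1422845_at read 154, 182, 146 and 172 in 1-cell embryos and 197, 202, 214 and 236 in 2-cell embryos, whereas 1428935_at read 215, 169.5, 211 and 178 and then 64.3, 83.7, 61.5 and 65.8. On 1428935_at all 2-cell arrays were below all 1-cell arrays, a fall of 1.34 ± 0.22 on the log2 scale (limma adjusted p = 1.2e-05), where 1422845_at differed by 0.36 ± 0.19 (adjusted p = 0.124). At the last step they were called in opposite directions, -0.47 ± 0.19 against 0.55 ± 0.22 (adjusted p = 0.0414 and 0.0449). Leaving out 1 array ended the first of these calls in 5 of 20 fits and the second in 10 of 20, among them the fit without 8-cell replicate 2 (0.46, adjusted p = 0.123).

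Per array, the difference between 2 probe sets of 1 gene was tested 85 times with an exact two-sided permutation test of 4 against 4 arrays. The smallest p this design allows is 0.0286, and the smallest Benjamini-Hochberg adjusted p was 0.101, so no test passed. With this floor any test could pass only if most of the 85 reached it together. The adjusted result therefore cannot decide whether the probe sets differ. 24 of the 85 reached the smallest p, which means that the per-array difference did not overlap between the stages. Among these were all 4 steps of the Hsp90b1 pair, whose changes differed by -1.74, 2.10, -1.14 and 1.15 on the log2 scale (1415889_a_at minus 1438040_a_at). Probe sets whose name ends in _a_at, _s_at or _x_at can share sequence with other transcripts, and which transcript forms each probe set detects is not analysed here.

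**Figure D3:**
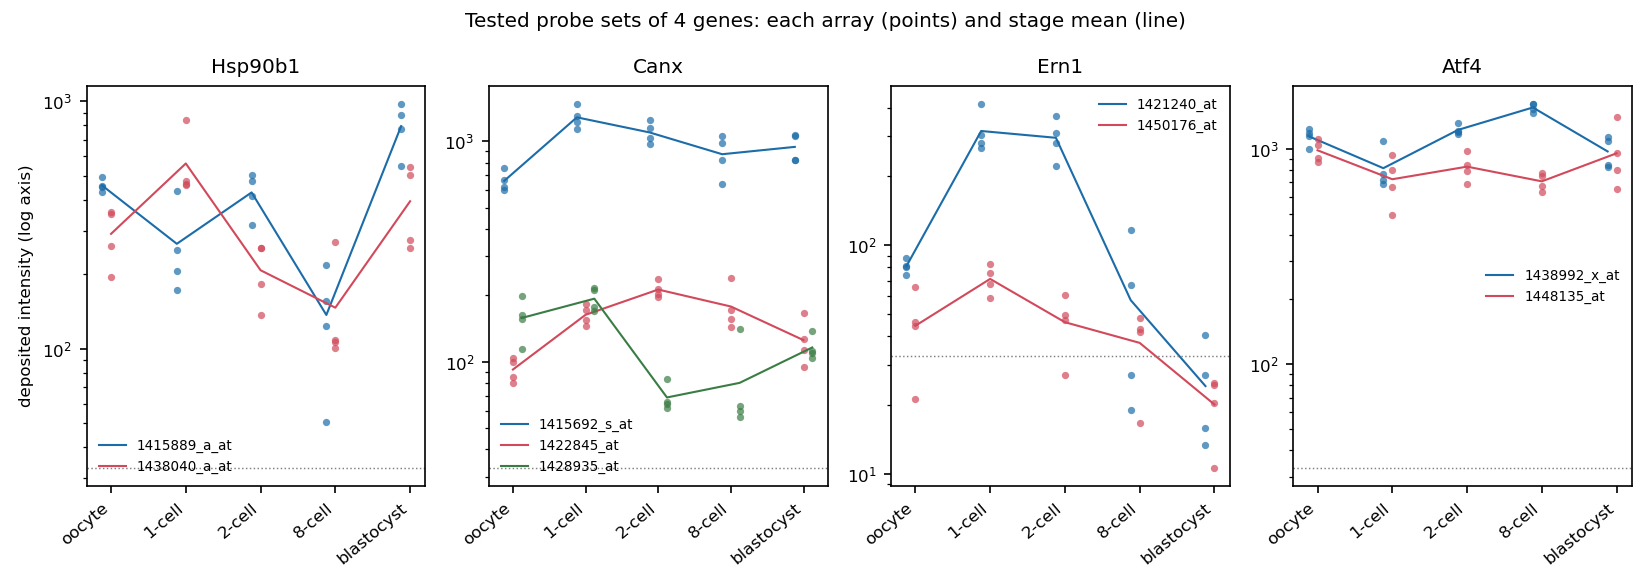
Deposited intensity (log axis) of the tested probe sets of Hsp90b1, Canx, Ern1 and Atf4 by stage; each point is 1 array, lines join stage means, and the dotted line marks the filter at 32.9. The 2 Hsp90b1 probe sets cross between the oocyte and 2-cell stages, 1 Canx probe set is low at the 2-cell stage where another is high, and the Atf4 probe sets part at the 8-cell stage.

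The disulfide isomerases had 1 call between them over the 4 steps, a rise of Pdia4 at the first. Pdia3, which works with calnexin and calreticulin on glycoproteins, was measured by 1423423_at alone and read 244, 178, 185 and 180.3 in oocytes, and 324, 336, 239 and 285 in blastocysts. Its stage means were 197, 226, 295, 282 and 296 in developmental order, and no single step was called. On the hybridization-control scale it was called lower at the first step (-0.80, limma adjusted p = 0.0235) and higher at the last (1.135, adjusted p = 0.0011). From oocyte to blastocyst it rose by 0.56 ± 0.18 on the log2 scale (1.5-fold, limma adjusted p = 0.00988), with overlapping arrays, and by 0.30 (adjusted p = 0.394) on the hybridization-control scale.

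Pdia4, the isomerase also known as ERp72, stayed close to the filter. On 1416497_at oocytes read 46, 41.4, 40 and 39.1, and 1-cell embryos 62.1, 53.1, 133 and 163, all of them higher. The 2-cell, 8-cell and blastocyst arrays read 50.4 to 74.6, 25.7 to 72.9 and 27.6 to 55.8. The rise at the first step was 0.97 ± 0.29 on the log2 scale (limma adjusted p = 0.00988). It was 0.73 and not called without 1-cell replicate 4 (adjusted p = 0.0578), and 0.13 (0.771) on the hybridization-control scale. The 1-cell to 2-cell difference was not called (-0.51 ± 0.29, adjusted p = 0.164, but 0.0456 without 1-cell replicate 2), and neither were the later steps. From 1-cell to blastocyst the fall was called (-1.08 ± 0.29, adjusted p = 0.00167). Its second probe set, 1450620_at, read 13.4 to 129 over the 20 arrays with no call at any step. On the hybridization-control scale it was called lower at the first step (-0.92, adjusted p = 0.0409).

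Ern1, the IRE1α sensor, was highest at the 1-cell and 2-cell stages. On 1421240_at the oocyte arrays read 88.3, 81, 80.7 and 73.9, and the 1-cell arrays 279.7, 265, 305 and 414. Later stages gave 368, 309, 281 and 223 (2-cell), 19.1, 117, 27.1 and 66.9 (8-cell) and 27.1, 15.8, 40.6 and 13.4 (blastocyst). The 1-cell and 2-cell arrays were high and overlapped with each other but with no other stage, and 3 of 4 blastocyst arrays lay below the filter. Ern1 rose by 1.80 ± 0.31 on the log2 scale from oocyte to 1-cell (3.9-fold, limma adjusted p = 4.55e-05), a direction kept under each scaling tried. It fell by 2.35 ± 0.31 from 2-cell to 8-cell (5.13-fold, adjusted p = 3.31e-07), and fell by 2.72 without 8-cell replicate 2, which read 117 where the other 8-cell arrays read 19.1 to 66.9. From oocyte to blastocyst it fell by 1.42 ± 0.31 (adjusted p = 0.000273).

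The further fall of Ern1 from 8-cell to blastocyst, by 0.77 ± 0.31 (limma adjusted p = 0.0443), rested on few arrays. Without 8-cell replicate 2 the difference was -0.40 with an adjusted p of 0.257, and it also missed the threshold without 8-cell replicate 4 (0.118), 2-cell replicate 2 (0.0502) or blastocyst replicate 1 (0.0554), 2 (0.114) or 4 (0.127), under quantile normalization (0.185) and after median centring (0.186), and the difference was 0.01 on the hybridization-control scale. A second probe set, 1450176_at, read 59 to 82.8 in 1-cell embryos and 10.6 to 25 in blastocysts. It was called at no step, with 0.61 ± 0.28 at the first (adjusted p = 0.0981, and 0.0465 without oocyte replicate 2) and -0.25 ± 0.28 from 2-cell to 8-cell (adjusted p = 0.483). The 1-cell to 2-cell difference was called under quantile normalization (-0.68, adjusted p = 0.0183) and median centring (-0.65, adjusted p = 0.0259), and the last step without 8-cell replicate 4 (-0.83, adjusted p = 0.0158). From oocyte to blastocyst 1450176_at fell by 0.77 ± 0.28 (adjusted p = 0.0185), a call lost without oocyte replicate 2 (-0.60, adjusted p = 0.0867) or blastocyst replicate 1 (-0.62, adjusted p = 0.0798).

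Xbp1, whose mRNA is the known substrate of IRE1α, was highest in blastocysts, the stage at which Ern1 read lowest. On 1420886_a_at the oocyte arrays read 110.4, 64.5, 96.4 and 28.8, and the 1-cell arrays 77.4, 84, 103 and 12.2. At the 2-cell stage the values were 121, 131, 67.6 and 104, at the 8-cell stage 158, 164, 136 and 111 and in blastocysts 357, 341, 401 and 405. All blastocyst arrays lay above all others, and the 4 earlier stages overlapped in part. The step from 8-cell to blastocyst was a rise of 1.34 ± 0.35 on the log2 scale (2.64-fold, limma adjusted p = 0.00301), and from oocyte to blastocyst Xbp1 rose by 2.27 ± 0.35 (5.01-fold, adjusted p = 2.57e-06). The earlier steps were not called (-0.20 ± 0.35, 0.72 ± 0.35 and 0.41 ± 0.35). On the hybridization-control scale the first step was called lower (-1.09, adjusted p = 0.0173). Without 1-cell replicate 3 the 1-cell to 2-cell difference was called (0.96, adjusted p = 0.036).

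The probe set 1437223_s_at of Xbp1 was also highest in blastocysts. It read 84.2, 85.3, 85.3 and 63 at the 2-cell stage, 65.1, 198, 121 and 50.9 at the 8-cell stage and 544, 569, 385 and 527 in blastocysts. It rose by 1.48 ± 0.31 from 1-cell to 2-cell (limma adjusted p = 0.000251), where no arrays overlapped, and by 2.25 ± 0.31 from 8-cell to blastocyst (adjusted p = 1.58e-06), or by 2.57 without 8-cell replicate 2. Its first-step difference was -0.74 ± 0.31 (adjusted p = 0.0744, and 0.0437 without 8-cell replicate 2). That step was also called lower without oocyte replicate 4 (0.0449) or 1-cell replicate 2 (0.0378) and with a replicate block (0.0382). On the hybridization-control scale it was -1.50 (adjusted p = 0.000462). 1420011_s_at was above the filter on 1 of the 16 earlier arrays, 8-cell replicate 2, and read 74.5, 109, 69 and 96.7 in blastocysts. Since it passed the filter only through the blastocyst arrays, its values are given as a description, without a limma result. The permutation tests between probe sets did include it. Its difference from 1437223_s_at reached their smallest p of 0.0286 from 1-cell to 2-cell and from oocyte to blastocyst, and no weight is placed on either.

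Atf4, the transcription factor of the amino acid and ER stress response, read far above the filter on every array. On 1438992_x_at the oocyte arrays read 1001, 1149, 1190.1 and 1243, and the 1-cell arrays 1088, 691, 715 and 763. The values were 1177, 1206, 1321 and 1202 in 2-cell embryos, 1469.7, 1614, 1534 and 1614 in 8-cell embryos and 827, 1093, 839 and 1136 in blastocysts. The 8-cell arrays were above the arrays of every other stage. Atf4 fell by 0.51 ± 0.15 on the log2 scale at the first step (limma adjusted p = 0.0123), which was 0.44 and not called without 1-cell replicate 2 (adjusted p = 0.0542). It rose by 0.61 ± 0.15 to the 2-cell stage (adjusted p = 0.00184). The difference to the 8-cell stage was 0.34 ± 0.15 (adjusted p = 0.0692, and 0.0425 without 1-cell replicate 1).

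The fall of Atf4 from 8-cell to blastocyst on 1438992_x_at was 0.69 ± 0.15 (limma adjusted p = 0.000786), but the difference was -0.41 (adjusted p = 0.0997) after centring on the array median and 0.41 (0.207) on the hybridization-control scale. On the second probe set, 1448135_at, the 8-cell arrays read 751, 773, 629 and 675 and the blastocyst arrays 651, 795, 962 and 1410.2, which overlapped. It differed by 0.37 ± 0.20 at this step (adjusted p = 0.131), opposite in sign to 1438992_x_at, and no other step was called on it either. At the last step 1448135_at was called higher after median centring (0.65, adjusted p = 0.0239), on the hybridization-control scale (1.46, adjusted p = 8.5e-05) and without blastocyst replicate 1 (0.53, adjusted p = 0.0412). At the first step it was called lower on the hybridization-control scale (-1.49, adjusted p = 8.33e-05), without 1-cell replicate 3 (-0.61, adjusted p = 0.0308) and without blastocyst replicate 4 (-0.47, adjusted p = 0.0443). From 2-cell to 8-cell it was called lower on the hybridization-control scale (-0.77, adjusted p = 0.0439).

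Selenos, a selenoprotein of the ER membrane that binds the Derlin proteins of the degradation machinery, went from below the filter in 1-cell embryos to its highest level in 2-cell embryos. On 1448704_s_at the oocyte arrays read 64.3, 33.6, 45.2 and 36.2, and the 1-cell arrays 22.8, 13.9, 22.7 and 6.7. Later stages gave 3034, 3629, 3704 and 3454 (2-cell), 2087, 2073, 1795 and 1592 (8-cell) and 1144, 1241, 958 and 1012 (blastocyst). No 2 stages overlapped, and each pair of neighbours in the order 2-cell, 8-cell, blastocyst, oocyte and 1-cell differed. The 1-cell arrays were all below the filter of 32.9, so the size of the rise to the 2-cell stage, 6.96 ± 0.19 on the log2 scale (limma adjusted p = 1.34e-20), depends on the constant of 12.15. Before it Selenos fell by 1.00 ± 0.19 from oocyte to 1-cell (adjusted p = 0.000161). After it the signal fell by 0.87 ± 0.19 to the 8-cell stage (1.83-fold, adjusted p = 0.000388) and by 0.79 ± 0.19 to the blastocyst (1.73-fold, adjusted p = 0.0017).

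The last fall of Selenos was the least certain, at -0.51 (limma adjusted p = 0.0584) after centring on the array median and 0.31 (0.404) on the hybridization-control scale. The blastocyst level stayed 24.3-fold above that of oocytes (4.29 ± 0.19, adjusted p = 9.67e-17). Both other probe sets took the same course from the 1-cell stage on. 1435735_x_at read 1.4 to 10 in 1-cell and 2178, 2395, 2921 and 2132 in 2-cell embryos, and 1452095_a_at read 6.5 to 22.5 and 265, 317, 389.9 and 485. On these no oocyte or 1-cell array exceeded the filter, and both passed it only through the later stages. Their rise to the 2-cell stage is therefore given as a description, and no weight is placed on it. The oocyte to 1-cell difference, with both stages below the filter, was not called (limma, -0.32 ± 0.21 and -0.03 ± 0.26).

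The Gapdh 3′ to 5′ ratio was low at the 8-cell stage (0.777 to 1.87, against 4.91 to 6.30 at the 2-cell stage and 3.51 to 8.31 in blastocysts), the stage at which Hspa5, Hsp90b1 and Calr had fallen and from which they rose. The actin ratio was lowest in blastocysts (1.52 to 2.22). The part of these ratios and of the 18S signal in the results was not tested. Hybridization controls are transcripts that the standard protocol of this array type adds to each sample after amplification. Scaling each array to them moved the median of all genes tested from 0.09 to -0.77 on the log2 scale at the first step and from -0.22 to 0.66 at the last. On that scale the fall of Calr at the first step and the rises of Hspa5, Hsp90b1, Calr and Xbp1 at the last kept their direction, and the first-step rise of Canx and the last-step falls of Ern1, Atf4 and Selenos did not. Neither scaling was checked against an absolute amount of RNA per embryo.

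**Figure D4:**
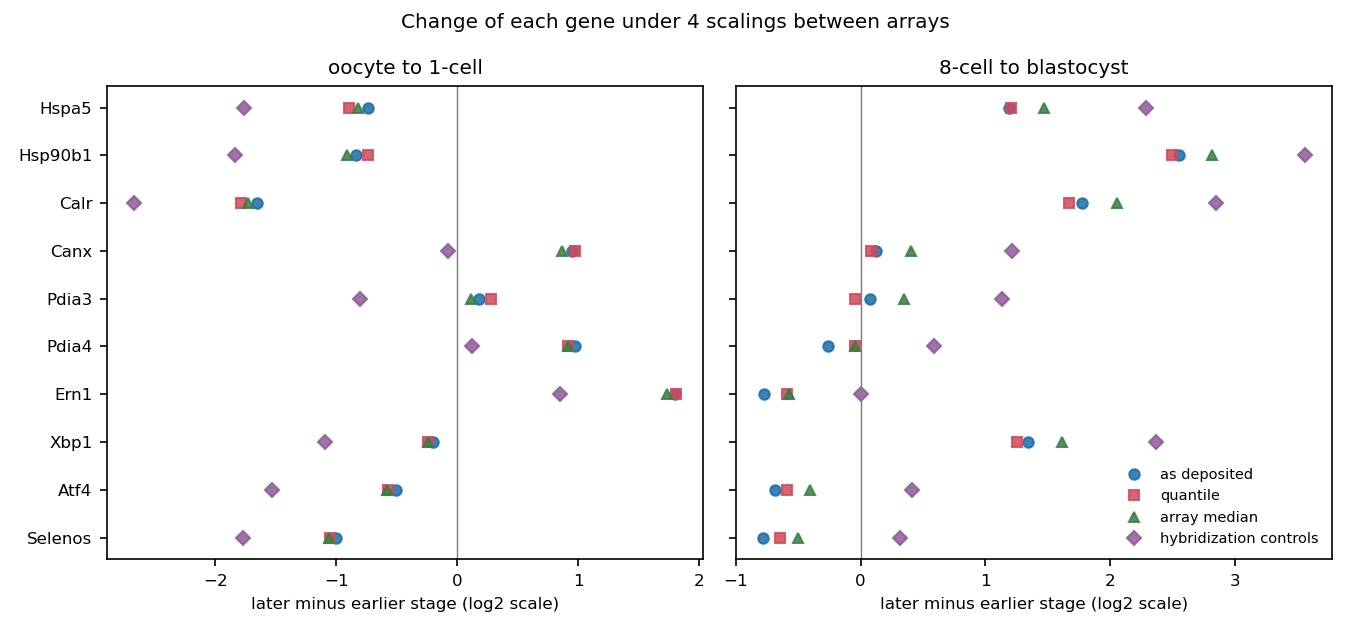
Log2 difference of each gene's representative probe set from oocyte to 1-cell and from 8-cell to blastocyst under 4 ways of scaling the arrays. Scaling to the hybridization controls moves all 10 genes down at the first step and up at the last, and the other 3 scalings differ less from one another.

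The remaining genes of the pathway were counted in 6 lists without the 10 genes. Of all genes tested, 15.2% were called higher and 16.6% lower at the first step, and 22% and 22.7% at the second. The shares were 22.2% and 25.7% from 2-cell to 8-cell and 20% and 26.4% at the last step. On the hybridization-control scale 0 genes of each list rose at the first step and 9 to 23 fell (limma), and 11 to 28 rose and 0 to 2 fell at the last, so list counts at these steps are relative to the other transcripts on the arrays. Of 30 tested ER folding factors 3 rose and 9 fell from oocyte to 1-cell, 6 and 12 from 1-cell to 2-cell, 9 and 8 from 2-cell to 8-cell, and 11 and 3 from 8-cell to blastocyst. Their median log2 differences were -0.16, -0.06, -0.13 and 0.13 in that order. Co-chaperones of BiP took different courses. Dnajb11 fell from a mean of 458 to 154 at the first step and Sil1, the nucleotide exchange factor of BiP, from 185 to 55.4, whereas Dnajc3 rose from 547 to 907. At the next step Dnajb9 rose 27.7-fold, from 116 to 3199, and Dnajc3 fell from 907 to 207. From 8-cell to blastocyst Dnajb9 fell from 1843 to 272.

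Among oxidoreductases and isomerases of this list, Ero1a, an oxidase that recharges the disulfide isomerases, rose from 37.5 to 507 from 1-cell to 2-cell and fell from 507 to 123 to the 8-cell stage. Ppib, the ER cyclophilin, fell from 1477 to 229 between the 2-cell and 8-cell stages and rose again from 229 to 1183 in blastocysts. Pdia6 rose from 271 to 1103 at this last step (limma adjusted p = 9.75e-09). Ero1b, the second oxidase, was lower in blastocysts than in oocytes, from 571 to 65, and Tmx1, a membrane-bound thioredoxin-related protein, was higher, from 35.9 to 983.

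Of 25 tested genes of stress signalling, 4 rose and 6 fell at the first step, 7 and 6 at the second, 3 and 10 from 2-cell to 8-cell and 4 and 6 at the last. At the first step 2 rose without oocyte replicate 2 or 3 or 1-cell replicate 3. Rtcb, the ligase that joins Xbp1 mRNA after IRE1α has removed the intron, fell from 632 to 239 from oocyte to 1-cell and rose from 245 to 454 between the 2-cell and 8-cell stages. Ddit3, which encodes CHOP, fell from 235 to 86.02 at the first step. From 1-cell to 2-cell Ppp1r15b, a subunit of a phosphatase of eIF2α, rose from 62.5 to 533 and Trib3 from 39.95 to 332, while Eif2ak4, the amino acid sensing kinase GCN2, fell from 470.4 to 138. Creb3l4, a membrane-bound factor of the CREB family, fell at each of the last 3 steps and averaged 371 in oocytes and 4.33 in blastocysts. Atf6, the third sensor, rose from 38.5 to 83.3 between the 2-cell and 8-cell stages.

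Of 33 tested genes of ER-associated degradation 2 rose and 6 fell at the first step, 5 and 10 at the second, 10 and 9 from 2-cell to 8-cell and 10 and 4 at the last. The count that rose at the second step was 2 without 1-cell replicate 3 and 3 without 1-cell replicate 1 or 4 or 2-cell replicate 2, and that at the first step was 4 without 1-cell replicate 1. Vcp, the ATPase that pulls proteins from the membrane and a known partner of selenoprotein S, was 8.26-fold higher in blastocysts than in oocytes (277 to 2291). Derl1 was also higher there, from 74.5 to 806, and Derl3 lower, from 454 to 24.6. Of 31 translocation and glycosylation genes 6 rose and 8 fell at the first step and 7 and 14 at the second. From 2-cell to 8-cell 17 rose and 5 fell with a median of 0.57, but 5 and 7 on the hybridization-control scale. At the last step 13 rose and 2 fell, or 1 fell in 9 of 20 fits without 1 array. Spcs3 of the signal peptidase rose from 11.1 to 209 and Ssr4 of the translocon-associated complex from 122 to 715 between the 2-cell and 8-cell stages, and Tram1 fell from 798 to 87.

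Among targets attributed to XBP1, more fell than rose from 1-cell to 2-cell, and more rose than fell from 8-cell to blastocyst. Whether they follow the level of Xbp1 was not tested. Of 26 tested, 3 rose and 11 fell from 1-cell to 2-cell (3 and 4 on the hybridization-control scale), against 22% and 22.7% of all genes. From 8-cell to blastocyst 12 rose and 3 fell (20 and 1 on that scale), against 20% and 26.4%. Without 1-cell replicate 4, 5 rose from 1-cell to 2-cell and 5 fell at the last step. Edem1, which directs glycoproteins to degradation, rose from 34.9 to 148 and Pdia6 as above, while Dnajb9 and Serp1 fell, Serp1 from 1136 to 464. At the first step 4 rose and 3 fell (2 rose without oocyte replicate 2 or 1-cell replicate 3), and from 2-cell to 8-cell 5 rose and 8 fell. Several of these genes also stand in the folding and translocation lists, so the counts are not independent.

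Of 29 tested targets of ATF4, 7 rose and 2 fell at the first step, 9 and 8 at the second, 9 and 7 from 2-cell to 8-cell and 6 and 7 at the last. On the hybridization-control scale the first of these counts became 0 and 9. Psat1, an enzyme of serine synthesis, rose from 15.8 to 984 from 1-cell to 2-cell and Sesn2 from 23.7 to 543. Slc7a11, the cystine transporter, fell from 326 to 70.7 at the same step. From 8-cell to blastocyst Asns, asparagine synthetase, rose from 171 to 781, and Ddit4 fell from 1018 to 123.

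**Figure D5:**
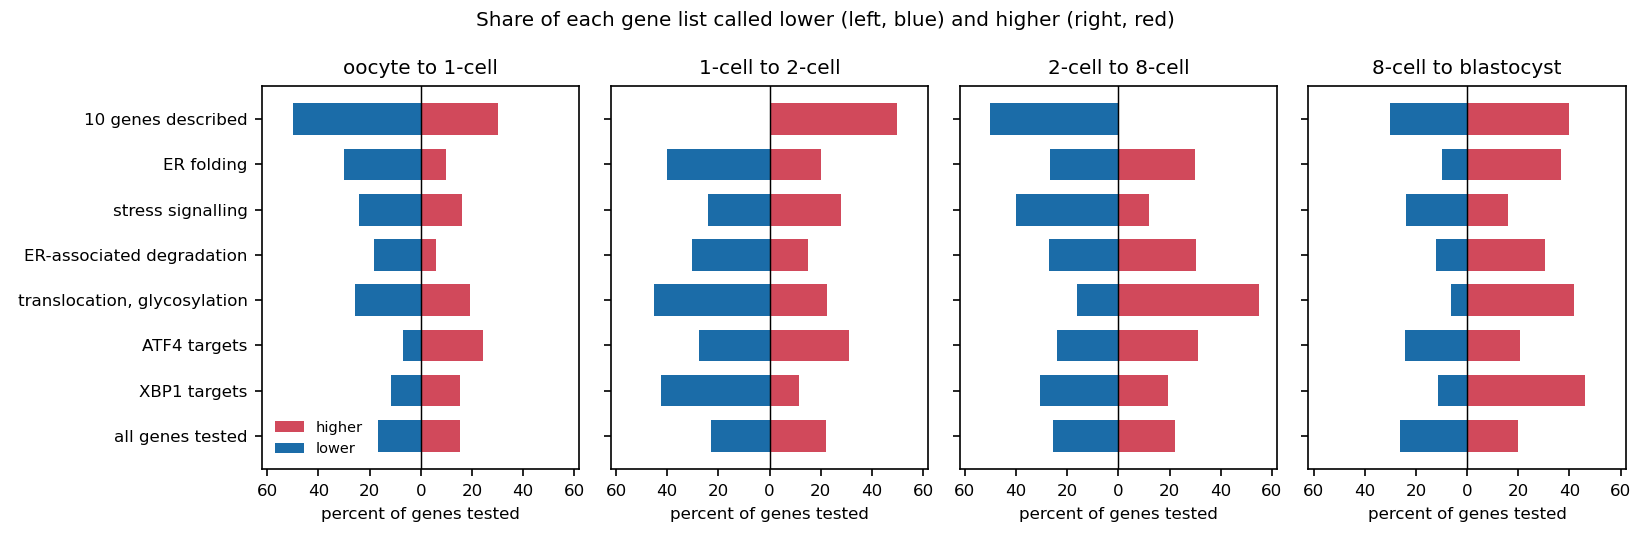
Percent of tested genes called higher (right) and lower (left) at each of 4 steps, for the 10 genes, 6 lists without them and all 10257 genes tested. The 10 genes have no call to the left from 1-cell to 2-cell and none to the right from 2-cell to 8-cell; with 10 genes, each gene counts for 10 percent.

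The other genes with the ERSE in their promoter window were listed after the members' values had been seen. They were 33 genes, of which 14 were on the array and 10 were tested. Of these 10, 3 rose and 0 fell at the first step (limma; 3 and 1 at an unadjusted p under 0.05). From 1-cell to 2-cell 1 rose and 7 fell, against 22% and 22.7% of all genes tested. The 1 that rose, Adcy3, was not called without 1-cell replicate 2 or 3 or 2-cell replicate 2 or 4. From 2-cell to 8-cell 0 rose and 5 fell, as many as at an unadjusted p under 0.05, and at the last step 2 rose and 3 fell. The shares of all genes tested were 15.2% and 16.6% at the first step. They were 22.2% and 25.7% from 2-cell to 8-cell and 20% and 26.4% at the last. At the first step 1 fell without 1-cell replicate 4 or blastocyst replicate 2, and from 2-cell to 8-cell 1 rose without 8-cell replicate 1 or 4. At the last step 1 rose without 8-cell replicate 1 or 4 or blastocyst replicate 1 or 3. Derl3 fell from 219.5 to 32.4 between the 2-cell and 8-cell stages and Ero1b from 397 to 118.

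Over the 20 arrays, the pairs among the 10 genes with the highest Pearson r of their log2 levels were Hsp90b1 and Calr (0.849), Hspa5 and Hsp90b1 (0.735), Pdia3 and Selenos (0.708), Pdia4 and Ern1 (0.655) and Hspa5 and Selenos (0.587). Hspa5 and Calr gave 0.531, Canx and Ern1 0.576, Calr and Canx -0.379 and Ern1 and Xbp1 -0.643. These values describe 5 clusters of 4 arrays that share their stage, and they carry no test. By the same measure the genes most like Selenos among all tested were Zfp622 (0.994), Bzw1 (0.990) and C1d (0.989), and 82 genes reached 0.95. No tested gene reached 0.95 with any of the other 9. The nearest to Calr was Isca1 (0.940), to Ern1 Trim37 (0.941), to Hsp90b1 Ptpra (0.913), to Xbp1 Nlrx1 (0.917), to Canx Sox6 (0.899), to Atf4 Dcaf13 (0.866), to Pdia3 Polr2a (0.864), to Hspa5 Rcc1l (0.859) and to Pdia4 Gpalpp1 (0.767).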

How the data were processed

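Total RNA of 20 samples (5 stages, 4 each) was hybridised to Affymetrix MOE430A arrays after 2 rounds of amplification, per the labels' protocols. The values used are the authors' deposited intensities on a linear scale, 1 per probe set, with a trimmed mean of 150.051 to 150.078 on every array. The software and background correction behind them were not given in the sources used here, and no detection calls were used. The number of arrays limits the precision.

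Symbols came from the platform annotation: of 22626 probe sets that are not controls 20380 had 1 symbol, 691 several and 1555 none, and 20351 matched RefSeq. From log2(intensity + 12.15), with the constant set from the pooled median, limma 3.58.1 in R 4.3.3 fitted all 5 stages (lmFit and trended eBayes; residual degrees of freedom 15). The test covered the 17208 probe sets whose intensity exceeded 32.9 (the 40th percentile) on 4 or more arrays, with Benjamini-Hochberg adjustment per comparison at 0.05. All member probe sets are reported. Genes named from a list are among the 2 largest called changes in each direction at a step whose arrays did not overlap, and genes of similar profile are among the 3 nearest per member. A named gene with a stage mean below 32.9 passed the filter at least in part through other stages, so such changes are descriptions. The members and lists were chosen with earlier results of these data known. Scripts were tested on simulated data. Alternatives covered scaling, the constant, the filter, the model, the probe set and each array left out; same-numbered replicates were not paired (6 of 40 pairs correlated above 0.1).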

Additional observations from a re-analysis of the deposited data

Results flagged for a closer look

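In 8 of 130 groups of 4 arrays (26 probe sets at 5 stages) 1 array stood apart from the other 3 by Dixon's criterion at the 95% level, where chance gives about 1 in 20. For Hsp90b1 on 1438040_a_at these were 1-cell replicate 1 at 844.4, with the next array at 478.1, and 8-cell replicate 2 at 269.9, with the next at 108.8. Calr on 1456170_x_at read 624.7 in 2-cell replicate 1, with the next at 486.9. Canx on 1428935_at read 141.4 in 8-cell replicate 1, with the next at 63.1. Pdia3 read 244.2 in oocyte replicate 1, with the next at 184.7, and Pdia4 on 1450620_at read 58.8 in 1-cell replicate 4, with the next at 29.3. Xbp1 on 1437223_s_at was low in 2-cell replicate 4, at 63 with the next at 84.2. Selenos on 1452095_a_at read 89.5 in blastocyst replicate 2, with the next at 75. Of these 8, only the Pdia3 value lay on the probe set that represents its gene.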

How the results depend on the processing

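Counts over the 10 genes depended most on the scaling and on the probe set chosen. Quantile normalization gave 2 genes lower in blastocysts than oocytes. Centring on the array median gave 3 higher from 1-cell to 2-cell, 0 lower from 8-cell to blastocyst and 9 distinguished neighbours in the stage orders. Scaling to the hybridization controls gave 1 higher at the first step, 0 lower at the last and 3 higher from oocyte to blastocyst. On that scale the first step reversed for Hsp90b1 1438040_a_at (-0.10), Canx 1415692_s_at (-0.077) and 1422845_at (-0.19) and Pdia3 (-0.80). The last step reversed for Canx 1422845_at (0.54), Ern1 1421240_at (0.005), Atf4 1438992_x_at (0.41) and Selenos 1435735_x_at (0.24), 1448704_s_at (0.31) and 1452095_a_at (0.24). Taking the lowest-intensity probe set gave 1 higher and 2 lower at the first step, 2 and 2 at the second, 3 lower at the third, 1 lower at the last and 7 distinguished neighbours. It reversed Hsp90b1 (0.91) and Pdia4 (-0.12) at the first step, Hsp90b1 at the second (-1.37), Atf4 at the last (0.37) and Canx from oocyte to blastocyst (-0.39); the cause was not tested. Without 1 array, counts higher and lower ranged from 2 to 3 and 2 to 5 at the first step, 4 to 5 and 0 to 1 at the second, 0 to 1 and 5 to 6 at the third, 4 to 4 and 2 to 3 at the last and 5 to 6 and 1 to 1 from oocyte to blastocyst, and distinguished neighbours from 12 to 16. With the replicate block the counts were 3 and 5, 5 and 0, 0 and 5, 4 and 2, and 6 and 1, with 13 neighbours distinguished; the same-numbered arrays share only a number. Among all genes tested the share of calls that were higher moved from 47.84% to 0.3349% at the first step and from 43.09% to 95.87% at the last under hybridization-control scaling, and to 63.99% at the last under median centring. The settings for the stage orders, the probe-set differences and the other ERSE genes were added after the data were seen. Signals near the filter of 32.9, as of Pdia4, early Selenos and late Ern1, limit what can be said of small changes there, and no detection calls were used.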
